A study of Mus musculus with 36 samples.

Results

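Mouse prostate organoids induced to express the FE255del variant of FOXA1 were compared with organoids carrying the empty vector (EV) at day 11, the later of the induced time points. The comparison holds 6 of the 36 libraries of the series, 3 of FE255del and 3 of EV, taken by the construct and day in their labels. Both groups are mouse prostate epithelium grown as 3-dimensional cultures. Both carry a pCW construct, a doxycycline-inducible expression vector, were sorted for the vector's dsRED marker, and received doxycycline at 500 ng/mL. They differ in the insert, which is the FE255del form of FOXA1 in one and nothing in the other (the labels write "empty vehicle"). The series also holds day 0 and day 1 libraries of both lines, where day 0 is without doxycycline according to the deposited names, and lines with wild-type (WT) FOXA1 or the variant R219S. Cultures were seeded in triplicate from 1 sorted population per construct, so replicates measure the spread between cultures and not between independently made lines. The species of the inserted sequence was not given.

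FOXA1 is a pioneer transcription factor that binds DNA through its forkhead domain, can open compacted chromatin, and in the prostate shapes the androgen response and the gene programme of luminal cells. FE255del removes residues from the forkhead domain and R219S substitutes 1, and both kinds of change are known from human prostate cancer. Prostate epithelium has luminal cells, marked by keratins 8 and 18, and basal cells, marked by keratins 5 and 14 and by p63. Outside the prostate, FOXA factors are known for roles in the foregut, liver, lung and bladder lining.

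The libraries held 71341165 to 75895479 counts in FE255del and 66114443 to 76195057 in EV. Genes with at least 1 count numbered 20566 to 21052 in FE255del libraries and 20064 to 20331 in EV libraries. Mitochondrial transcripts took 2.35% to 3.36% of counts in FE255del and 2.31% to 2.72% in EV. Levels below are CPM (counts scaled to library size) after TMM scaling, which depend on gene length and so are compared between groups only. Differences are log2 fold changes, FE255del over EV, with a standard error (SE) derived from the test. An adjusted p is from edgeR's quasi-likelihood test with Benjamini-Hochberg adjustment over all 18176 genes tested, with 0.05 as the threshold.

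The Foxa1 gene itself (ENSMUSG00000035451.6, chr12:57540628-57546916, minus strand, mm10) had 302, 316 and 266 CPM in FE255del libraries, against 217, 233 and 241 CPM in EV libraries. Every FE255del library stood above every EV library. The means were 295 ± 25.7 CPM in FE255del and 230.2 ± 12.2 CPM in EV (SD, n = 3 each), a log2 fold change of 0.36 ± 0.06 (SE; edgeR adjusted p = 6.7e-06). At day 0 the difference was 0.00 (edgeR adjusted p = 0.9938), and it was 0.36 larger at day 11 than at day 0 (edgeR adjusted p = 0.001858). Transcripts of the construct are counted here only where their sequence maps to the mouse gene, so this value does not measure total FOXA1. Nor can it check the label, because transcripts of the construct and of the cells' own gene are not separated. At day 11 Foxa1 averaged 268.6 CPM in WT and 268.5 CPM in R219S. FE255del did not differ past the threshold from WT (edgeR adjusted p = 0.1239) or R219S (edgeR adjusted p = 0.05824). The paralogue Foxa2 was at or under 3 counts in both groups, and Foxa3 had too few counts to test.

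FE255del organoids at day 11 differed from EV organoids in 7672 of 18176 genes, 4103 higher and 3569 lower. These are 42.2% of the genes tested, with 22.6% higher and 19.6% lower, so a list with about that share of calls moved no more often than genes at large. Differences of 2-fold or more passed the test in the higher direction for 1062 genes and in the lower direction for 881. The median over all genes was 0.01. The largest rises included Upk3a, known from urothelium, and Vsig1 and Kcne2, known from stomach. Most proliferation genes rose by a small amount, while basal keratins and most cornified-envelope and interferon-stimulated genes fell. Of the 7672 calls, 2459 (32.05%) were called in the same direction at day 0, before doxycycline. On that day 20.8% of the genes tested were called, 11.1% higher and 9.72% lower, the shares against which day 0 counts of lists are read.

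**Figure D1:**
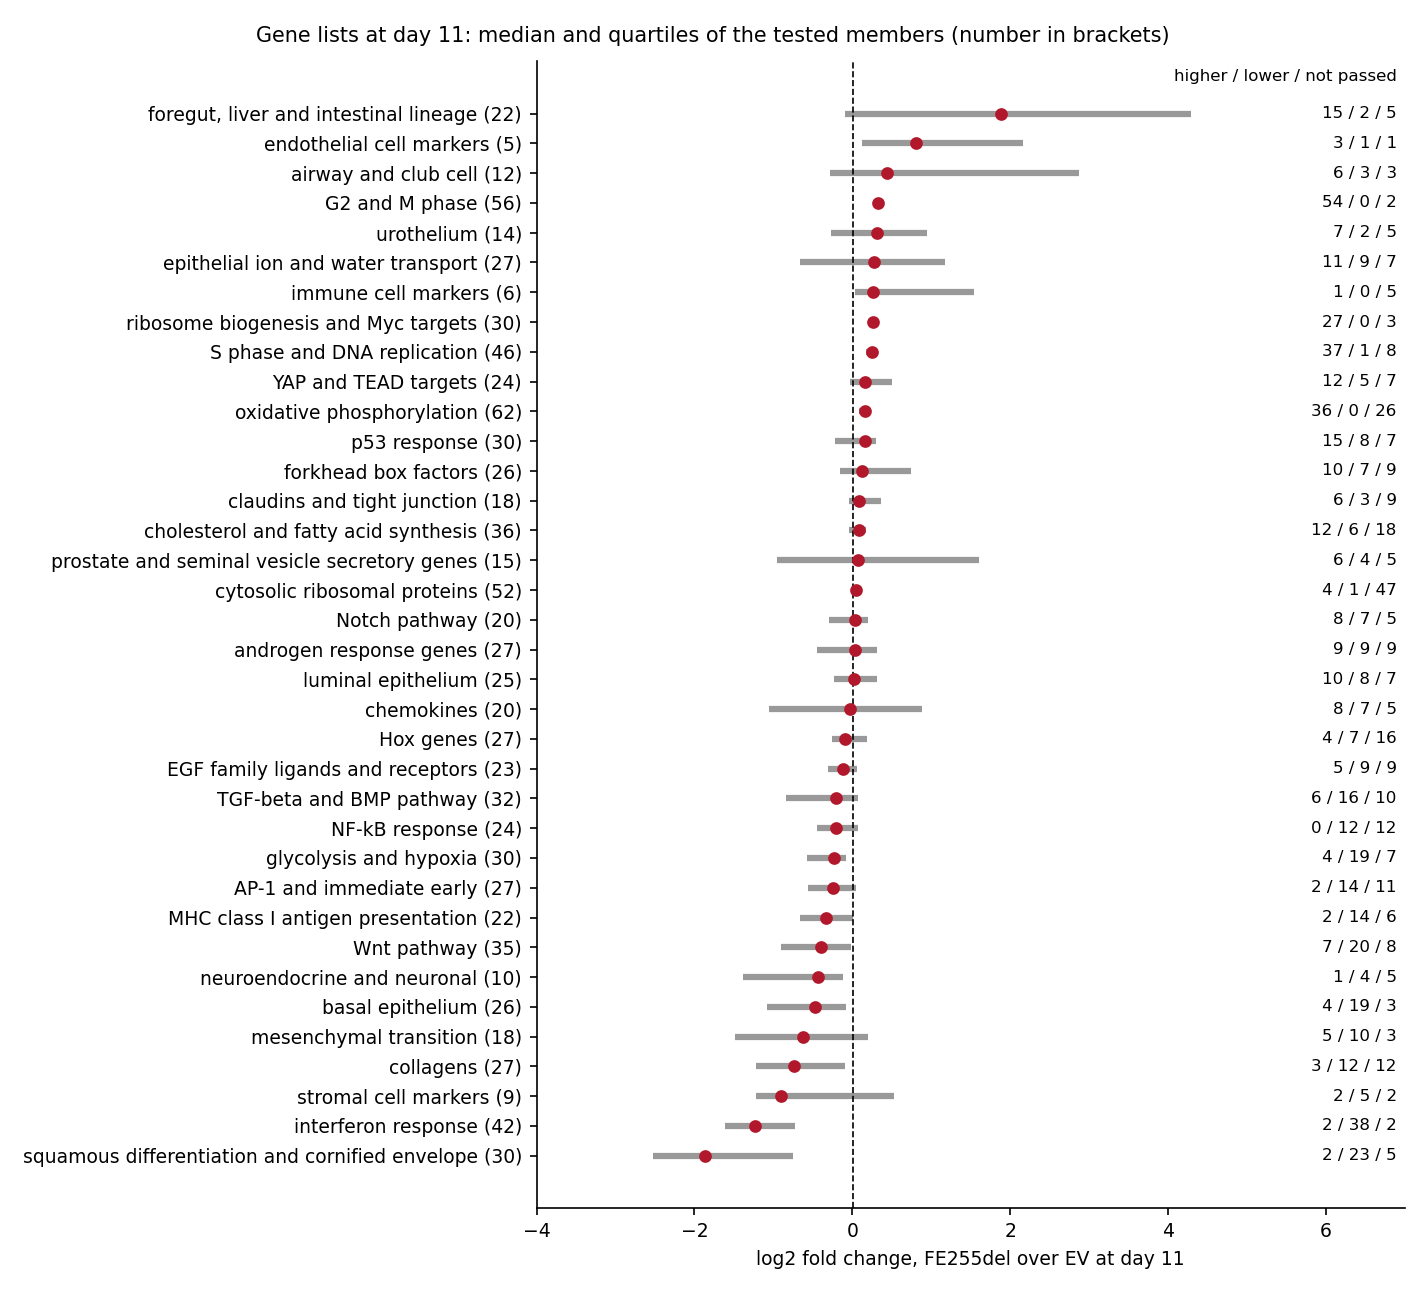
Median (points) and quartiles (bars) of the log2 fold change, FE255del over EV at day 11, for the tested members of 36 gene lists, with the number of members that were higher, lower or did not pass at the right. Squamous (median -1.87) and interferon (median -1.23) lists sit lowest and the foregut, liver and intestinal list (median 1.89) highest, and the cell cycle lists have narrow quartiles above 0.

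Among genes averaging at least 2 CPM, the 12 with the largest rises were at or near 0 in EV, except Upk3a at about 2 CPM. Sytl2, which encodes a Rab27-binding synaptotagmin-like protein of vesicle trafficking, had 58.9, 73.7 and 59 CPM in FE255del libraries, against 0.0265, 0 and 0 CPM in EV libraries. The EV value rests on 1 to 3 counts in all, so the ratio of 6816 has a 95% exact interval of 1887 to 56291 that covers counting error only. Because both reads of a pair appear to have been counted, such intervals are too narrow. Cckar, the receptor for the gut hormone cholecystokinin, had 26.7, 38.3 and 23.9 CPM in FE255del and 0 in every EV library, which is at least 2112-fold higher with a floor of 3 counts over the 3 EV libraries. Dcdc2a, a microtubule-binding doublecortin-domain gene, had 21.7, 24.8 and 19.8 CPM in FE255del and 0 in EV, at least 1576-fold higher. Each of these rises passed, with edgeR adjusted p between 1.2e-24 for Sytl2 and 7.4e-13 for Cckar.

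Upk3a (chr15:85017141-85022547, plus strand, mm10) encodes uroplakin 3A, a membrane plaque protein of the bladder's umbrella cells. It had 865, 1020 and 918 CPM in FE255del libraries, against 2.67, 2.53 and 1.24 CPM in EV libraries. The means were 934 ± 78.7 CPM in FE255del and 2.15 ± 0.79 CPM in EV (SD, n = 3 each), a log2 fold change of 8.75 ± 0.21 (SE; edgeR adjusted p = 6.7e-22). Spermine-binding protein genes of the prostate secretion were also higher: Sbp had 19.3, 23.4 and 19.7 CPM in FE255del and 0 in EV, at least 1480-fold higher. Its neighbour Sbpl was at least 477-fold higher, although reads of this closely related pair may have been split between them. Kcne2, a potassium channel subunit known from gastric parietal cells, had 3.96, 5.68 and 4.77 CPM in FE255del, against 0.0265, 0 and 0 CPM in EV. Cd22, known from the surface of B cells, was at least 424.7-fold higher in FE255del, with 7, 5 and 5.83 CPM there against 0 in EV.

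The other genes of the 12 were Vsig1, a junction protein of the stomach lining, Cxxc4, a zinc-finger inhibitor of Wnt signalling, Cyp4a12a, a fatty acid hydroxylase, and Olfm4, a secreted glycoprotein of the gut and prostate. Vsig1 had 7.99, 9.23 and 8.45 CPM in FE255del, against 0, 0.0278 and 0 CPM in EV. Cxxc4 had 9.07, 10.3 and 8.13 CPM in FE255del, against 0, 0.0278 and 0 CPM in EV. Cyp4a12a was 9.56 ± 0.43 higher on the log2 scale and Olfm4 8.55 ± 0.62 higher, and reads of Cyp4a12a may be shared with its near-identical relatives. Every FE255del library exceeded every EV library for all 12, which their choice required and which, in either direction, held for 45.4% of all genes tested.

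**Figure D2:**
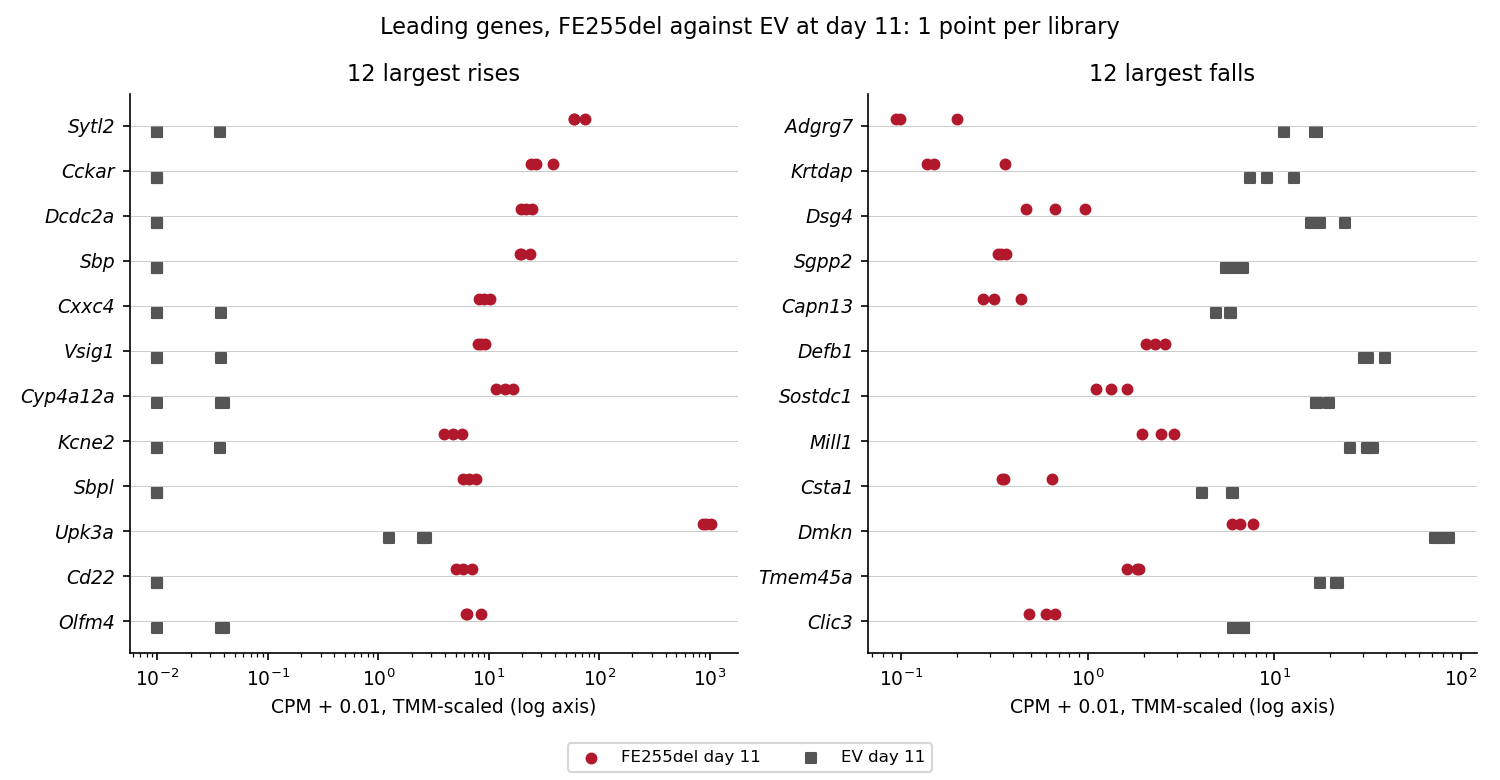
CPM per library on a log axis (0.01 CPM added, so that 0 can be shown) for the 12 largest rises and the 12 largest falls at day 11, with FE255del as circles above EV as squares. By the rule of choice, FE255del points lie above all EV points for the rises at the left and under them for the falls at the right. Upk3a is the rise that stands clearly above 0 in EV.

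The 12 largest falls were led by Adgrg7, an orphan adhesion G protein-coupled receptor, and by genes of stratified squamous epithelium. Adgrg7 had 0.0893, 0.189 and 0.0837 CPM in FE255del libraries, against 17, 11.3 and 16.6 CPM in EV libraries, a log2 fold change of -6.96 ± 0.44. Krtdap, a keratinocyte differentiation-associated peptide, had 0.128, 0.35 and 0.14 CPM in FE255del, against 12.8, 9.2 and 7.42 CPM in EV. Dsg4, a desmosomal cadherin of cornifying cells, had 0.663, 0.458 and 0.963 CPM in FE255del, against 24, 17.5 and 15.8 CPM in EV, a log2 fold change of -4.79 ± 0.23. No FE255del library reached the lowest EV library for any of the 12, which their choice required. At day 0, before induction, Adgrg7 was already 4.88 lower and Krtdap 3.48 lower in FE255del on the log2 scale, and their differences widened by 2.08 and 2.10 between day 0 and day 11. All 12 were lower at day 0 past the threshold except Csta1 (-0.60; edgeR adjusted p = 0.07272).

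Dmkn, the keratinocyte secreted protein dermokine, fell by 3.56 on the log2 scale, to 6.54, 7.67 and 5.92 CPM in FE255del, against 86.5, 77.9 and 73.1 CPM in EV. Sostdc1, a secreted antagonist of BMP and Wnt ligands, had 1.61, 1.32 and 1.1 CPM in FE255del and 19.7, 16.9 and 16.8 CPM in EV, and Defb1, an epithelial antimicrobial peptide, had 2.58, 2.29 and 2.04 CPM in FE255del against 39.5, 30.4 and 32 CPM in EV. The remaining falls among the 12 were Sgpp2, a sphingosine phosphatase (-4.17), the calpain gene Capn13 (-4.04), the MHC class I-like Mill1 (-3.64), the protease inhibitor Csta1 (-3.59), Tmem45a (-3.53) and Clic3, a chloride intracellular channel gene (-3.51).

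Basal and squamous genes were lower in FE255del. Of 26 basal epithelial genes tested, 4 rose, 19 fell and 3 did not pass, with a median of -0.48. Krt5 had 2890, 2953 and 2848 CPM in FE255del libraries, against 6104, 5927 and 5649 CPM in EV libraries (log2 fold change -1.02 ± 0.06; edgeR adjusted p = 4.4e-17). Its partner Krt14 had 958, 966 and 952 CPM in FE255del and 2516, 2619 and 2288 CPM in EV (-1.37 ± 0.07; edgeR adjusted p = 7.0e-18). For both keratins the groups were far apart and the FE255del libraries nearly equal.

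Adhesion genes of the basal layer moved the same way: Dsg3, a desmosomal cadherin, fell by 2.09, Lama3, a laminin chain, by 1.39, and Col17a1, a hemidesmosomal collagen, by 1.11 on the log2 scale. Bcl11b, a transcription factor of basal epithelia, fell by 1.89. Trp63, the gene of the basal master regulator p63, fell by 0.21 (edgeR adjusted p = 0.008625), a call lost without EV replicate 1 (-0.15, edgeR adjusted p = 0.09) or without FE255del replicate 1 (-0.17, edgeR adjusted p = 0.057) or 2 (-0.18, edgeR adjusted p = 0.052). Its difference was -0.22 at day 0, and the change of 0.01 since then did not pass (edgeR adjusted p = 0.9737). The basal list as a whole was partly lower at day 0, with 1 higher and 15 lower of 26 (median -0.22), and its difference moved down by day 11 for 14 genes and up for 4. Krt5 was 0.42 lower and Krt14 0.54 lower at day 0 on the log2 scale. The basal genes that rose at day 11 were Krt15 (0.30), Dsc3 (0.41), Ngfr (0.85) and S100a2 (1.47). The summed level of the list was 8927 to 9447 CPM in FE255del and 15980 to 17230 CPM in EV. In these bulk cultures, fewer cells of a type and less RNA per cell cannot be told apart.

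Of 30 squamous and cornified-envelope genes, 2 rose and 23 fell, with a median of -1.87. Krt6a, a keratin of stratified and wounded epithelium, had 179, 175 and 159 CPM in FE255del libraries, against 739, 764 and 628 CPM in EV libraries (-2.06 ± 0.08), although its reads may be shared with Krt6b. Krt16 fell by 2.92 and Krt13 by 2.62 on the log2 scale, and the envelope genes Ivl (involucrin, -1.58), Lor (loricrin, -1.42) and Tgm1 (the crosslinking transglutaminase, -1.33) fell too. Ivl had 5.55, 4.55 and 6.47 CPM in FE255del and 16.3, 16.5 and 16.9 CPM in EV. The exceptions were Krt4, a keratin of non-cornified stratified epithelium, with 929, 903 and 955 CPM in FE255del against 543, 577 and 615 CPM in EV (0.68 ± 0.07), and Sprr1a (1.07).

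Luminal markers showed no common shift: of 25 tested, 10 rose and 8 fell, with a median of 0.03. Krt18 rose by 0.26 and Cd24a by 0.39 on the log2 scale, whereas Krt8 fell by 0.44 and Krt7 by 0.27. The clearest rises were Spdef, an ETS factor of secretory epithelium, with 14.8, 14.6 and 14.1 CPM in FE255del against 0.226, 0.209 and 0.121 CPM in EV, and Cd38, with 40.7, 48.1 and 46.7 CPM in FE255del against 4.83, 4.61 and 5.54 CPM in EV. Their log2 fold changes were 6.28 ± 0.23 and 3.18 ± 0.08, and in both genes the libraries of a group lay close together. The adhesion gene Cdh1 (E-cadherin) rose by 0.32.

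Androgen response genes split evenly, with 9 up, 9 down and 9 not passing out of 27. Fkbp5, a glucocorticoid and androgen response gene, had 28.6, 31.1 and 25.3 CPM in FE255del, against 94.7, 86.5 and 90.4 CPM in EV (-1.68 ± 0.06; edgeR adjusted p = 2.6e-22). Zbtb16 (-1.77), Ndrg1 (-1.54), Pmepa1 (-1.24) and Tsc22d3 (-0.80) fell with it. Steap1, a gene known from prostate epithelium, rose to 71.5, 73.3 and 72.1 CPM in FE255del, against 15.7, 14.7 and 15.7 CPM in EV. Mme (neprilysin, 5.26), Steap2 (0.98) and Tmprss2 (0.39) were also higher. Pbsn, the probasin gene of mature mouse prostate, had too few counts to test. Of 10 neuroendocrine and neuronal genes, 1 rose and 4 fell, Syp (synaptophysin) did not pass, and Chga was too low to test.

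Genes of other FOXA-related epithelia included many of the strongest rises, but not as whole programmes. Of 14 urothelial genes, 7 rose and 2 fell. Upk1b, the partner of uroplakin 3A in the plaque, had 58.8, 69 and 60.2 CPM in FE255del libraries, against 1.23, 1.29 and 0.965 CPM in EV libraries (5.74 ± 0.12). Upk1a rose by 1.00 and Psca by 0.78, Upk2 did not pass (0.55), and the bladder cytochrome gene Cyp4b1 fell by 2.57 on the log2 scale.

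Of 12 airway genes, 6 rose and 3 fell. At day 0, 5 of the 12 were already higher and 2 lower (median 0.26), and the difference then moved up for 5 and down for 3. Foxj1, the master regulator of motile cilia, had 32.4, 39 and 39.2 CPM in FE255del and 3.26, 2.59 and 4.28 CPM in EV (3.46 ± 0.14). Cxcl15, a lung chemokine, had 137, 179 and 205 CPM in FE255del and 13.1, 30.1 and 18 CPM in EV (3.09 ± 0.21), and Reg3g, an antibacterial lectin, had 26.1, 30.6 and 29.8 CPM in FE255del against 0.292, 0.223 and 0.317 CPM in EV. Scgb1a1, the defining club cell secretoglobin, went the other way, with 1.07, 0.647 and 1.17 CPM in FE255del and 6.75, 2.98 and 5.61 CPM in EV (-2.41 ± 0.25).

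Of 37 listed foregut, liver and intestinal genes, 22 could be tested, and 9 of the 22 had at most 3 counts in a group. Among those tested, 15 rose and 2 fell, and many of these remained under 1 CPM. Their summed level was 163.4 to 184 CPM in FE255del and 127.9 to 184.1 CPM in EV, so the groups overlapped. The median of 1.89 counts members at 0 in EV at their lower bound. The hepatic and gut nuclear receptor Hnf4a had 3.81, 4.49 and 4.73 CPM in FE255del, against 0.265, 0.445 and 0.422 CPM in EV (3.53 ± 0.35). The trefoil peptide gene Tff2 had 17.9, 22.4 and 17 CPM in FE255del, against 0, 0.0835 and 0.452 CPM in EV (6.81 ± 0.47), and Ctse, a gastric protease, rose by 2.11. The brush border gene Vil1 (-3.49) and the gut lectin gene Lgals4 (-0.94) fell, and the call of Lgals4 was lost when the 6 libraries were fitted alone (edgeR adjusted p = 0.067). Ion transport genes were mixed, with 11 up and 9 down of 27. Clca1, a secreted regulator of chloride channels in mucous cells, had 753, 902 and 769 CPM in FE255del and 4.19, 4.03 and 3.98 CPM in EV (7.63 ± 0.11; edgeR adjusted p = 3.9e-31). Scnn1g, a subunit of the epithelial sodium channel, had 5.47, 5.36 and 5.8 CPM in FE255del and 0.186, 0.501 and 0.362 CPM in EV, and the aquaporin gene Aqp3 fell by 2.76 on the log2 scale. Both groups stood clear of each other for Clca1 and Scnn1g.

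Interferon-stimulated genes were lower in FE255del than in EV at day 11. Of 42 tested, 2 rose, 38 fell and 2 did not pass, with a median of -1.23. Isg15, a ubiquitin-like antiviral modifier, had 16.8, 7.18 and 15 CPM in FE255del libraries, against 51.5, 47.2 and 60.9 CPM in EV libraries (-2.03 ± 0.25; edgeR adjusted p = 1.3e-07). Zbp1, a sensor of Z-form nucleic acid, had 4.3, 2.09 and 3.53 CPM in FE255del and 17, 25.6 and 24.1 CPM in EV (-2.75 ± 0.23). The transcription factor genes Irf7 (-1.97), Stat2 (-1.30) and Irf9 (-0.96) fell.

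The IFIT genes did not move together. Ifit2, which encodes an RNA-binding antiviral protein, had 68.6, 68.6 and 73.3 CPM in FE255del libraries, against 30.1, 31.5 and 33.6 CPM in EV libraries, so that it rose without overlap (1.15 ± 0.07; edgeR adjusted p = 4.2e-16). Ifit1 had 54.4, 36.4 and 55.5 CPM in FE255del and 44.5, 49.2 and 51.3 CPM in EV, and did not pass (0.01; edgeR adjusted p = 0.9737). The other member that rose was Irf1 (0.25). Of 22 MHC class I presentation genes, 2 rose and 14 fell. Among these, B2m, the light chain, had 170, 163 and 206 CPM in FE255del against 354, 393 and 440 CPM in EV, and Nlrc5, the class I transactivator gene, fell by 1.92 on the log2 scale.

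These genes varied together within the groups. FE255del replicate 2 was below its group mean in 41 of the 42 interferon genes, EV replicate 1 was below its own in 39, and EV replicate 3 was above in 41. The summed level of the 42 genes was 1260 to 1647 CPM in FE255del and 2502 to 3001 CPM in EV at day 11. At day 0 it was 1279 to 1426 CPM in FE255del and 1366 to 1568 CPM in EV, and at day 1 978 to 1051 CPM in FE255del and 1274 to 1344 CPM in EV. The EV libraries of day 11 were above those of both earlier days, while the FE255del range at day 11 overlapped its range at day 0; change over time within a line was not tested. On day 11 the sum was 1079 to 1145 CPM in WT libraries and 2192 to 2923 CPM in R219S libraries.

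**Figure D3:**
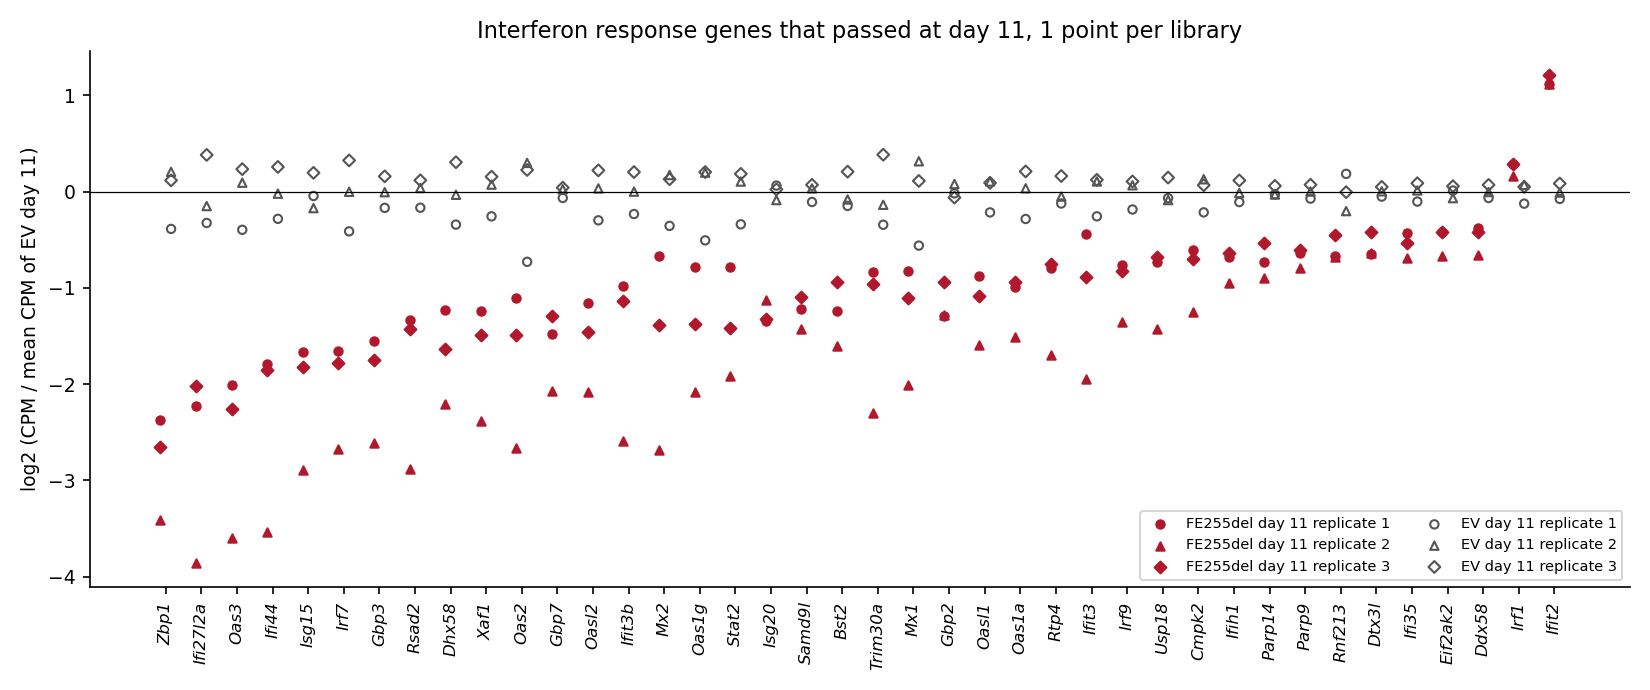
Level of each interferon gene that passed the test, in each day 11 library, as log2 of its CPM over the mean CPM of EV, with FE255del filled and EV open, genes ordered by log2 fold change and 1 symbol per replicate. FE255del replicate 2 (triangles) is the lowest point for most genes, and Ifit2, at the far right, stands above EV in all 3 FE255del libraries.

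The 250 bases before the start sites were read from RefSeq (GRCm38.p6, the build of mm10) for 4 of these genes, which show members that fell, did not pass or rose. Capitals mark the half-site GAAA followed by itself after 2 bases of any kind, on either strand, which are the letters of an interferon-stimulated response element, and matches that overlap are printed as 1 block. Isg15 (chr4:156200819-156201068, minus strand, fell) has 3 matches and Gbp3 (chr3:142559794-142560043, plus strand, fell) has 2. For a gene with several windows, the window with the most matches is printed, and the other Gbp3 window (chr3:142560106-142560355) has 0. Ifit1 (chr19:34640639-34640888, plus strand, did not pass) has 2 matches and Ifit2 (chr19:34550444-34550693, plus strand, rose) has 0.
Isg15: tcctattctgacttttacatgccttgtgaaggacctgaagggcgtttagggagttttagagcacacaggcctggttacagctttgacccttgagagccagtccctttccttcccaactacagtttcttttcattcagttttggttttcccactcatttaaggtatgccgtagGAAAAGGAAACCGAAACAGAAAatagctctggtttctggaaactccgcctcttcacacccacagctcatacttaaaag
Gbp3: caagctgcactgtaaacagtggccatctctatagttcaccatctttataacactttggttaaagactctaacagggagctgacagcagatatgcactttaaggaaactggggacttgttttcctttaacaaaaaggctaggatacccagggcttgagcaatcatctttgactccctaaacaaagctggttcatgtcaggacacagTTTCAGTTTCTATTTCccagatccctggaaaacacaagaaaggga
Ifit1: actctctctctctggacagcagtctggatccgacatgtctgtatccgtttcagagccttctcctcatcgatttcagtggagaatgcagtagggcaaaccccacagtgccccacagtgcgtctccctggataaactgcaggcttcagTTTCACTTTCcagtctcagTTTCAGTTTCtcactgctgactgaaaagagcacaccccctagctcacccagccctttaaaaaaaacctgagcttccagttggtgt
Ifit2: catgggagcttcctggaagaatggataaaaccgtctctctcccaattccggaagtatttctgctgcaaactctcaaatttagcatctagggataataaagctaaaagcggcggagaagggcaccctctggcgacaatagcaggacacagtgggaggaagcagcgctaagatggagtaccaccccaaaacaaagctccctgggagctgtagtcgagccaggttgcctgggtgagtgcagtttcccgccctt
Over the list, 14 of the 31 genes with a RefSeq window had a match, in 36.8% of their 38 windows, against 2.98% of all 32851 windows. Ifit1, which did not pass, holds the letters as Isg15 and Gbp3 do, whereas Irf7 and Irf9, which fell, have 0 matches. The genes printed therefore do not show whether a match goes with a fall. A match here is a description of sequence and not of binding.

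Most cell cycle genes rose by a small amount. Of 56 G2 and M phase genes, 54 rose and none fell, with a median of 0.33, and of 46 S phase genes, 37 rose and 1 fell, with a median of 0.25. Mki67, the proliferation marker, had 277, 318 and 266 CPM in FE255del libraries, against 228, 217 and 203 CPM in EV libraries (0.41 ± 0.08; edgeR adjusted p = 1.3e-04). Cenpf, a kinetochore gene, had 88.5, 112 and 91.4 CPM in FE255del and 67.8, 59.1 and 53 CPM in EV (0.70 ± 0.11). Mcm6, a subunit of the replicative helicase, had 365, 385 and 372 CPM in FE255del and 253, 248 and 248 CPM in EV (0.58 ± 0.04). No FE255del library of these 3 genes fell to the level of an EV library. Such separation, in either direction, held for 45.4% of all genes tested.

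The cell cycle genes varied together between libraries of a group. FE255del replicate 2 was above the other FE255del libraries in all 56 G2 and M phase genes and in 44 of the 46 S phase genes, FE255del replicate 3 was below in 56 and 43, and EV replicate 3 was below in 52 and 38. The summed level of the G2 and M phase genes was 4541, 5147 and 4308 CPM in FE255del libraries, against 3822, 3828 and 3490 CPM in EV libraries, so that the groups did not overlap but the range within FE255del was not much smaller than the difference between the group means. Without FE255del replicate 2, 44 G2 and M phase genes and 27 S phase genes were higher. At day 0, 16 G2 and M phase genes (median 0.14) and 28 S phase genes (median 0.20) were already higher in FE255del and none was lower. The difference passed as larger at day 11 than at day 0 for 9 of 56 G2 and M phase and 5 of 46 S phase genes. Over all genes tested that share was 9.44%, and the S phase list was near it. In DESeq2, the change since day 0 passed in either direction for 15 G2 and M phase genes and 6 S phase genes. In edgeR, 24 and 8 had an unadjusted p under 0.05.

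Growth genes were higher too. Of 30 ribosome biogenesis and Myc target genes, 27 rose and none fell (median 0.26), led by the pyrimidine synthesis gene Cad (0.60), and Myc itself rose by 0.29. At day 0, 22 of the 30 were already higher (median 0.19), and the change since then passed for 3, beside 20.5% of all genes tested. Of 62 oxidative phosphorylation genes, 36 rose and none fell (median 0.16), or 21 without FE255del replicate 2, which was above the other FE255del libraries in 61 of the 62, while FE255del replicate 1 was below in 60. At day 0, 26 were already higher (median 0.14), and the change since then passed for 0 of the 62 in edgeR (median 0.015) and 0 in DESeq2, with 5 at an unadjusted p under 0.05 in edgeR. By contrast, few cytosolic ribosomal protein genes passed, with 4 up and 1 down of 52. Glycolysis and hypoxia genes were lower, with 4 up and 19 down of 30. Car9, a hypoxia-induced carbonic anhydrase, had 64.9, 58.9 and 56.8 CPM in FE255del, against 144, 140 and 137 CPM in EV (-1.22), and the glucose transporter gene Slc2a1 fell by 0.74 on the log2 scale.

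The signalling lists differed in direction. In the Wnt list, 7 of 35 rose and 20 fell. At day 0, 3 of the 35 were already higher and 11 lower, and the difference then moved up for 4 and down for 13. The feedback target Axin2 had 73.6, 62.9 and 70.8 CPM in FE255del and 125, 124 and 129 CPM in EV (-0.87), and the pathway inhibitors Notum (-1.01) and Rnf43 (-0.64) and the ligand Wnt10a (-1.32) fell with it. Wnt5a, a non-canonical ligand, rose by 2.29. In the TGF-beta and BMP list, 6 of 32 rose, among them the ligands Bmp2 (1.90) and Tgfb2 (1.06), and 16 fell, among them Inhba (-1.97), a subunit of activin, and Chrd (-3.23), a BMP antagonist. Of these 32, 5 were already higher and 13 lower at day 0, and the difference then moved up for 5 and down for 13.

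Of 27 AP-1 and immediate early genes, 2 rose and 14 fell, including Fosl1 (-1.17) and Jun (-0.59), and of 24 NF-kB response genes none rose and 12 fell, including the cytokine gene Il1a (-2.56). The Notch genes Notch1 (-0.73) and Jag1 (-0.86) fell, although the Notch list as a whole was split with 8 up and 7 down of 20. Chemokines were split too, with 8 up and 7 down of 20, from Ccl2 (-2.82) to Cxcl17 (2.26). At day 0, 7 of the 20 chemokines were already higher and 1 lower. The AP-1 list had 1 higher and 8 lower on that day, and the NF-kB list 3 higher and 3 lower. Beside the 11.1% higher and 9.72% lower over all genes at day 0, the NF-kB list was called about as often as genes at large. Genes moved in both directions in the p53 response (15 up and 8 down of 30), YAP and TEAD targets (12 up and 5 down of 24), EGF family (5 up and 9 down of 23), tight junction (6 up and 3 down of 18), secretory (6 up and 4 down of 15) and Hox genes (4 up and 7 down of 27). Over all genes tested, 22.6% were higher and 19.6% lower at day 11, and the Hox list was called about as often as that. Forkhead factors were split as well, with 10 up and 7 down of 26, among them Foxd2 (2.32), Foxq1 (0.87) and Foxc1 (-1.01).

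Markers of other cell types were low. The summed level of stromal markers was 14.3 to 15.2 CPM in FE255del and 27.8 to 39.2 CPM in EV, of immune markers 10.5 to 11.5 CPM in FE255del and 4.98 to 6.38 CPM in EV, and of endothelial markers 8.78 to 9.93 CPM in FE255del and 3.92 to 5.73 CPM in EV. Of the tested members, 2 stromal markers rose and 5 of 9 fell, 1 of 6 immune markers rose, and 3 of 5 endothelial markers rose. The pan-leukocyte gene Ptprc had too few counts to test. Collagens (3 up and 12 down of 27) and mesenchymal genes (5 up and 10 down of 18) also fell more often than they rose. An example was Sparc, with 52.4, 45.3 and 58.6 CPM in FE255del and 168, 142 and 156 CPM in EV (-1.58). The summed level of the mesenchymal genes overlapped between the groups, at 1779 to 1928 CPM in FE255del and 1761 to 1837 CPM in EV. Vim, the mesenchymal filament gene, had 3.11, 2.67 and 2.15 CPM in FE255del and 8.1, 6.64 and 3.86 CPM in EV (-1.23 ± 0.17). Whether stromal content had a part in these falls was not tested.

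Of the 7672 genes called at day 11, 4978 (64.89%) were not called at day 0. Over all 18176 genes tested, 14400 were not called at day 0, which is a larger share. A gene that was not called may still have differed. In day 0 libraries of the same lines, 3776 genes (20.8% of those tested; 2509 without EV day 0 replicate 2) differed between FE255del and EV, 11.1% higher and 9.72% lower, with a median of 0.00 over all genes. The genes called in the same direction on both days were 65.12% of the day 0 calls. For 3729 genes (20.5%) the difference itself changed between day 0 and day 11, upwards in 9.44% and downwards in 11.1% of all genes tested. Upk3a stood 1.35 above EV at day 0 and 8.75 above it at day 11, a change of 7.40 on the log2 scale. Its day 0 call was lost without FE255del day 0 replicate 2 (1.21; edgeR adjusted p = 0.053). Clca1 was 0.69 higher at day 0 and its difference grew by 6.94. Sostdc1 was already 4.69 lower in FE255del at day 0, and its day 11 difference was smaller by 0.97, a change that lost its call in 4 of the 12 fits that left out a library (lowest value 0.78, without FE255del day 0 replicate 1). In the interferon list the difference moved down between day 0 and day 11 for 32 of 42 genes and up for 1. Trim30a, an interferon-induced TRIM gene, was 1.98 higher in FE255del at day 0 and 1.23 lower at day 11, and Gad1, a glutamate decarboxylase gene, did not pass at day 0 (0.17) and was 2.84 lower at day 11. The day 11 call of Trim30a was lost when the 6 libraries were fitted alone (edgeR adjusted p = 0.079). Squamous genes too were partly lower at day 0, with 1 higher and 20 lower of 30 (median -0.79), against 4 higher and 7 lower of 42 interferon genes (median -0.11).

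At day 1, with 9674 genes (53.2%) called against EV, 25.5% higher and 27.7% lower, the pattern was partly the same and partly the reverse. The median over all genes was -0.03. With total-count scaling 61% of day 1 calls were higher, against 48% with TMM scaling. Genes called in the same direction on day 11 and day 1 numbered 4806, which is 62.64% of the day 11 calls and 49.68% of the day 1 calls. In 935 genes the directions were opposite, 620 of them higher at day 11 and lower at day 1. The difference changed between day 1 and day 11 in 6293 genes (34.6%), upwards in 20.1% and downwards in 14.5% of all genes tested; 58% of these changes were upwards with TMM scaling and 44.5% with total-count scaling. Cell cycle genes reversed: 54 of 56 G2 and M phase genes were lower in FE255del at day 1 (median -0.56), and for all 56 the difference was larger at day 11 than at day 1. Mki67 was 0.67 lower in FE255del on the log2 scale at day 1 and 0.41 higher at day 11. Of 36 cholesterol and fatty acid synthesis genes, 3 were higher and 31 lower at day 1, and 12 were higher and 6 lower at day 11.

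**Figure D4:**
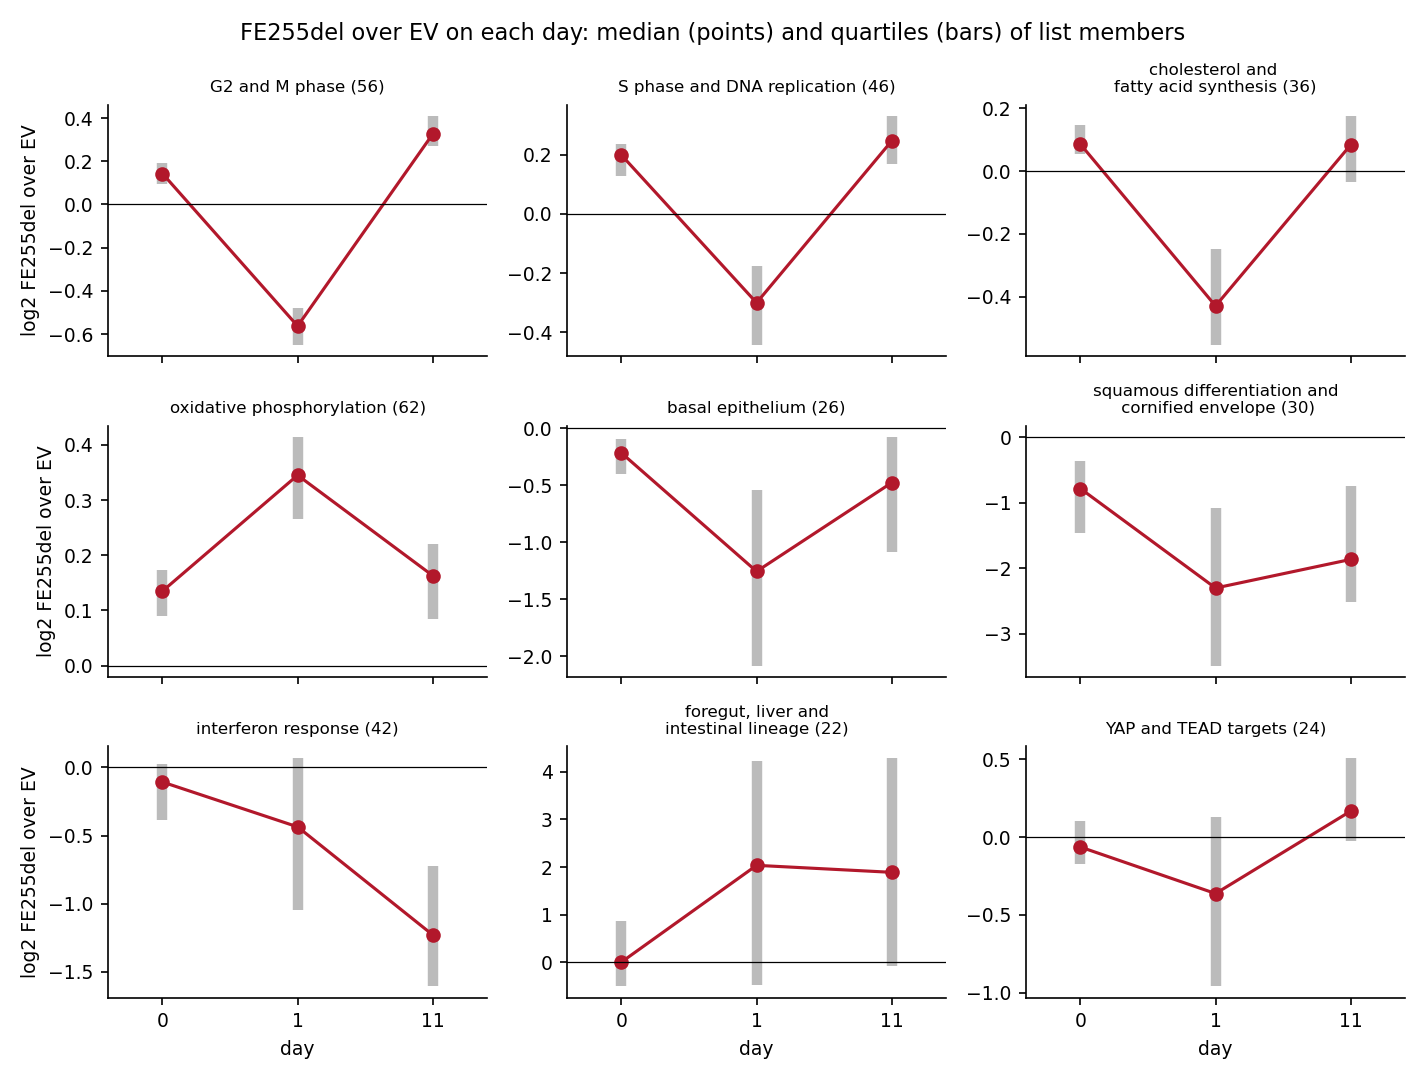
Median (points) and quartiles (bars) of the log2 fold change, FE255del over EV on the same day, for 9 gene lists at days 0, 1 and 11, each panel with its own vertical axis. G2 and M phase genes have medians of 0.14, -0.56 and 0.33 at days 0, 1 and 11, and interferon genes reach their lowest median, -1.23, at day 11.

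Basal genes stood closer to EV at day 11 than at day 1. At day 1, 22 of 26 basal genes were lower in FE255del (median -1.25), and for 19 of the 26 the difference was higher at day 11 than at day 1. Krt5 was 2.61 lower at day 1 and 1.02 lower at day 11. Squamous genes stayed down, with a median of -2.31 at day 1 and -1.87 at day 11. Mesenchymal Vim was 2.32 higher in FE255del at day 1 and 1.23 lower at day 11, and Kcnj15, a potassium channel gene, was 3.39 higher at day 1 and 1.81 lower at day 11. The growth arrest gene Gas1 was 4.38 higher at day 1 and 0.77 lower at day 11. The adhesion genes Amigo2 and Ceacam10 and the amino acid transporter gene Slc7a8 were higher on both days, by 9.03, 5.35 and 5.68 at day 1 and by 3.89, 0.77 and 0.94 at day 11.

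Other genes were late. Nxpe2, a neurexophilin family gene, had 196, 207 and 212 CPM in FE255del and 1.37, 1.79 and 1.34 CPM in EV at day 11 (7.09 ± 0.12), and its difference was 1.41 at day 1. The imprinted noncoding RNA gene H19 had 27, 25.5 and 34.2 CPM in FE255del and 0.319, 0.71 and 0.121 CPM in EV at day 11 (6.22 ± 0.39), and did not pass at day 1 (0.29). Pde8b, a cyclic AMP phosphodiesterase gene, had 26.1, 28.4 and 23.4 CPM in FE255del and 0.544, 1.2 and 1.09 CPM in EV at day 11, and did not pass at day 1 (0.43). The transporter gene Slc16a12 gained 4.21 on the log2 scale between the days. Among those that were ahead at day 1, Sbp averaged 258 CPM, Kcne2 120 CPM and Cd22 134 CPM in FE255del libraries of that day.

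**Figure D5:**
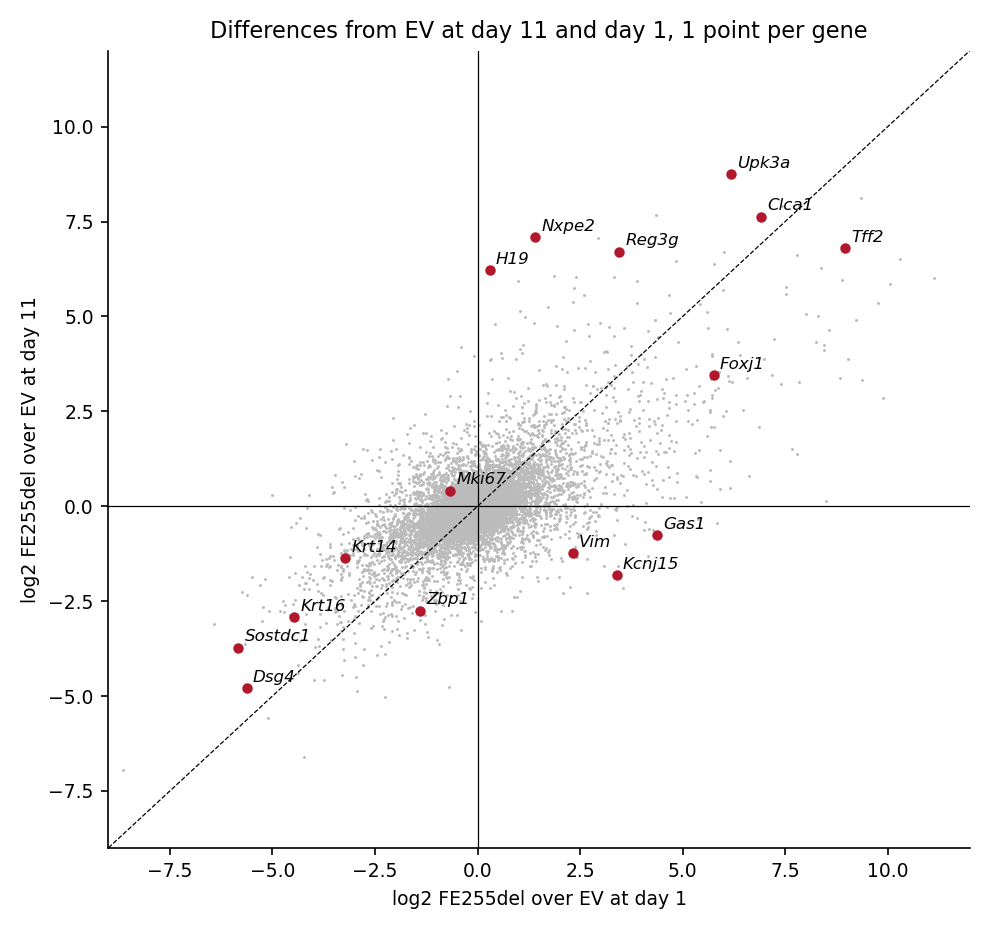
Each point is 1 of 17129 genes, with the log2 fold change of FE255del over EV at day 1 on the horizontal axis and at day 11 on the vertical axis, and the dashed line marks equal values. Nxpe2 and H19 lie far above the line, Krt14 and Sostdc1 lie above it on the lower left, and Vim, Kcnj15 and Gas1 lie at the lower right with opposite signs on the 2 days.

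Set against wild-type FOXA1 at day 11, FE255del differed in 3213 genes (17.7% of those tested), 1773 higher (9.75%) and 1440 lower (7.92%). A fit of these 6 libraries alone called 1722. The basal list showed few differences, with 2 higher and 3 lower of 26, and Krt5 did not pass (0.02; edgeR adjusted p = 0.8855). The cell cycle lists also differed little from WT. Of 56 G2 and M phase genes, 5 were higher and 1 lower (median 0.07), and of 46 S phase genes, 3 were higher and 2 lower (median -0.01). Interferon genes were higher than in WT in 31 of 42 and lower in 1, with a median of 0.74 beside 0.00 over all genes. The secretoglobin gene Scgb1a1 averaged 0.963 ± 0.279 CPM in FE255del and 615 ± 104 CPM in WT (SD, n = 3 each), a log2 fold change of -9.32 ± 0.22. Fgb, Tff1, Ptgdr and Gp2, all under 0.3 CPM in each FE255del library, were likewise far below WT, although the call of Fgb was lost in DESeq2 (adjusted p = 0.59).

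In the other direction, Tff2 averaged 19.1 ± 2.9 CPM in FE255del and 0.251 ± 0.0845 CPM in WT, Vnn3, a pantetheinase gene, was 4.84 higher, and Cyp4a12a 8.82 higher on the log2 scale. Cckar averaged 1.64 CPM in WT, also below FE255del. Spink5, an epidermal protease inhibitor gene, was 4.10 higher than in WT, where it averaged 7 ± 2.15 CPM, but did not differ past the threshold from EV (0.16). Upk3a averaged 661 CPM in WT, a difference of 0.50 that lost its call without FE255del replicate 2 (0.43; edgeR adjusted p = 0.055) and in DESeq2 (adjusted p = 0.44).

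Against the other variant, R219S, FE255del differed in 8940 genes (49.2%), 4497 higher (24.7%) and 4443 lower (24.4%). Of these calls 50.3% were higher with TMM scaling and 60.7% with total-count scaling. Cell cycle genes were higher than in R219S in 55 of 56 G2 and M phase members (median 0.55), and basal genes lower in 22 of 26 (median -0.74), beside a median of 0.01 over all genes. Upk3a averaged 0.214 CPM in R219S, and Sytl2, Cckar, Dcdc2a and the neuropeptide receptor gene Adcyap1r1 were also among the 5 genes furthest above it. Nxpe2, in contrast, averaged 183 CPM in R219S, and there its difference from FE255del did not pass (0.16; edgeR adjusted p = 0.08812), though it did without R219S replicate 1 (0.25; edgeR adjusted p = 0.017) and with total-count scaling (0.23; edgeR adjusted p = 0.022). Lower than in R219S were the growth factor gene Igf1 and the collagen gene Col14a1, at 34.4 and 64.8 CPM in R219S and under 0.1 CPM in each FE255del library, with Rxfp1, Otol1 and Tmem45a2, which were at or near 0 in FE255del. The call of Rxfp1 was lost in DESeq2 (adjusted p = 0.12). The comparisons with WT, R219S and EV share the FE255del libraries and are therefore given as values side by side only.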

How the data were processed

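Poly(A) RNA of sorted mouse prostate organoids was sequenced with a stranded mRNA kit, per the labels' protocols. Per the submitters' processing notes, STAR 2.4.2a, featureCounts 1.4.3 and the build mm10 were used; the strand setting and the annotation release are not given in the sources used here, so overlapping and antisense genes may share reads. The authors deposited raw counts per gene, not normalized, for 45232 genes in 36 libraries (12 groups of 3). Some are written with decimals, so the deposited values were handled as estimated counts, which need not be whole; they were whole to within 3.03e-09 and were rounded. Of counts from 1 to 20, 69.7% were even, against 50.3% above 1000, as when both reads of a pair are counted, so intervals from counts are too narrow. Symbols came from a gene name table (44585 of 45232 identifiers matched) and coordinates from GENCODE on the same build.

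Counts were analysed in R 4.3.3 with edgeR 4.0.16: filterByExpr on the 12 groups left 18176 genes, TMM factors were 0.989 to 1.03 in the compared libraries, and 1 robust quasi-likelihood fit of 12 group means gave two-sided tests for 7 comparisons, adjusted by Benjamini-Hochberg at 0.05. The common biological coefficient of variation was 0.0695. The SE is the absolute log2 fold change over the square root of F. Where a group had no counts, the fold is a bound with 3 counts over its 3 libraries, and with 1 to 3 counts a ratio with an exact 95% interval. The procedure was tested on simulated data.

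The libraries and the 36 gene lists were chosen with earlier results of these data known, so lists are described by counts and medians and have no test. Named were fixed lineage genes (some are not reported here), the 12 largest changes in each direction at 2 CPM or more without overlap (predicted genes left out), the 5 largest in the other comparisons, and the list members with the smallest p or that define a list; other members were chosen after their values were seen. Alternatives were DESeq2 1.42.0, other scalings and filters, halved counts, the compared groups alone, a replicate block and leaving out each library. Leaving out replicate 1 of both day 11 groups was chosen after seeing the data. Promoter sequences and start sites are from RefSeq. No protein sequence was used here.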

Additional observations from a re-analysis of the deposited data

Results flagged for a closer look

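The FE255del against EV difference was not the same on all days, by a test of the change itself in edgeR. It changed between day 1 and day 11 in 6293 of 18176 genes and between day 0 and day 11 in 3729.

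Of the lineage genes and largest changes named by rule, 6 passed on both day 1 and day 11 with opposite signs and with a change that passed too. Mki67 moved up by 1.08 on the log2 scale between the days, since it was lower than EV at day 1 and higher at day 11. The luminal keratin gene Krt18 moved up by 0.58 in the same way. The change was -5.20 for the potassium channel gene Kcnj15, -5.15 for Gas1, -3.55 for Vim and -2.51 for Trim30a, each higher than EV at day 1 and lower at day 11. Vim averaged under 4 CPM in FE255del at day 11, so its fall there concerns a low level. Cell cycle genes beyond Mki67 moved in the same way, since 54 of 56 G2 and M phase genes were lower at day 1 and 54 higher at day 11. Groups of 3 libraries are too small for an outlier test.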

How the results depend on the processing

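The day 11 call of 7672 genes between FE255del and EV stayed within 1.5 times under every alternative run, from 5902 with the compared groups alone to 7920 with total-count scaling. It was 7835 in DESeq2, 7711 with RLE scaling and 7544 without replicate 1 of both groups. Leaving out 1 library gave 6747 to 7398 calls at day 11, 2509 to 3515 at day 0, 8986 to 9153 at day 1, 3306 to 3641 for the change since day 0, 5801 to 6224 for the change since day 1, 2554 to 3192 against WT and 8259 to 8625 against R219S. Of the 7 counts, 2 moved by over 1.5 times: day 0 fell to 2509 of 3776 without EV day 0 replicate 2, and the comparison with WT fell to 1722 of 3213 when its 6 libraries were fitted alone; the causes were not tested. At day 11 against EV, the cell cycle, basal and interferon counts kept within 1.5 times under each alternative, except S phase genes lower. The count of G2 and M phase genes changed since day 0 did not, with 9 in edgeR and 15 in DESeq2. The stricter filter left fewer squamous and foregut members to test and so fewer calls. Of 1080 list counts by setting, 78 moved by over 1.5 times. No named gene reversed in 2898 values; 15 lost and 2 gained a call. Same-numbered FE255del and EV libraries did not deviate together (r = -0.684, -0.323 and 0.0455 over genes), so the numbers were not taken as pairs; with a replicate block 7775 genes were called, 7607 of them shared in the same direction. Depth limits the genes at or near 0 in a group, whose folds are bounds. With 3 cultures from 1 sorted population per construct, p-values do not cover differences between independently made lines.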
